A study of Drosophila melanogaster with 3 samples.

Results

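The genes described here encode the proteins of the cytoplasmic ribosome of Drosophila melanogaster. They were chosen by name from the Ensembl annotation: every protein-coding gene whose symbol is RpL or RpS with a number and up to 2 letters, the stalk genes RpLP0, RpLP1 and RpLP2, and sta. Of 13968 protein-coding genes, 86 fit, with 48 for the large subunit and 38 for the small subunit, sta among the latter. The older symbols sop and oho23B are not gene symbols in this annotation, and the genes that carried them are listed as RpS2 and RpS21.

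Chromatin immunoprecipitation followed by sequencing (ChIP-seq) located CG9609, a Drosophila protein, on the genome of whole embryos. All 3 samples form a single group of biological replicates: embryos of both sexes, collected over 0 to 24 h, of a transgenic line in which a stable insertion makes CG9609 as a fusion carrying green fluorescent protein (GFP) on the C-terminal side. The promoter that drives the fusion is not given in the labels. The fusion was precipitated with an antibody against GFP from chromatin sonicated to 200 to 800 bp. There was no second genotype, treatment or stage, a mixture of all embryonic ages and cell types contributed to each sample, and no signal from embryos without the fusion is analysed here.

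Cytoplasmic ribosomal proteins are needed in every cell that makes protein and must be produced in matched amounts, since each ribosome holds about the same set of them. Their promoters in flies and mammals often lack a TATA box and start transcription within a run of pyrimidines, the TCT initiator, in place of the usual initiator. In Drosophila, loss of a copy of many of these genes gives the Minute phenotype of slow development and short, thin bristles.

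A gene was called bound when a summit of the authors' reproducible set lay within 500 bp of a transcription start site (TSS) of the gene. That set holds 3747 regions, thresholded by the authors by the irreproducible discovery rate (IDR), and is identical with the 3747 strongest regions of the list they called on the pooled replicates. By this rule 63 of the 86 ribosomal protein genes were bound, where 18.8% of all protein-coding genes were. Each replicate list was also read by itself, at its 3747 strongest regions. Replicate 1 had such a region at 53 ribosomal protein genes, against 16.8% of all genes. Replicate 2 had one at 60, against 18.7% of all genes, and replicate 3 at 65, against 18.5%. In all 3 replicates the members' share, 69.0% ± 7.01 (SD, n = 3), was thus far above that of all genes, 18.0% ± 1.03. Every replicate had one of its strongest regions at 47 of the 86 members and at 1772 of all 13968 genes. The design has no contrast between samples, so no test was made, and genes are not replicates of each other.

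Promoter sequences of 6 members are shown because they carry the range of the findings: the strongest peak, 4 bound promoters that hold the sequence elements discussed further on, and the unbound gene nearest to the threshold. Each runs 5′ to 3′ on the gene's strand, from 150 bases before to 20 bases after the start site, in the Release 6 assembly (dm6) sequence from RefSeq. Capitals mark CTTT with its C within 5 bases of the start site (the TCT initiator), TATCGATA and ATCGATAG (the DNA replication-related element, DRE, and a word that overlaps it), GGTCACAC (motif 1), CANCNCTA (motif 7) and CAACACTG or its reverse complement.
RpS27 (chr3R:25247494-25247664, minus strand): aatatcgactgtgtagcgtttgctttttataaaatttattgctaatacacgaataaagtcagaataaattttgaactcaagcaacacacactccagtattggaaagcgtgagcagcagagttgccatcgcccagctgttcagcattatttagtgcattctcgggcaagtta
RpL23A (chr3L:1668634-1668804, minus strand): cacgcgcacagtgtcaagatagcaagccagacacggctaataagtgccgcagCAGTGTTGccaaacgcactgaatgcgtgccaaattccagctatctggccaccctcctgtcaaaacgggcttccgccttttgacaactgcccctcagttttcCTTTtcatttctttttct
RpL14 (chr3L:8600856-8601026, plus strand): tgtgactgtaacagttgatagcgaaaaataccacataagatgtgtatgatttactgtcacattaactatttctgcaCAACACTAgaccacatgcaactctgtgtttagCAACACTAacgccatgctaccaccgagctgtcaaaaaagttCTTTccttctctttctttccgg
RpS25 (chr3R:11216267-11216437, minus strand): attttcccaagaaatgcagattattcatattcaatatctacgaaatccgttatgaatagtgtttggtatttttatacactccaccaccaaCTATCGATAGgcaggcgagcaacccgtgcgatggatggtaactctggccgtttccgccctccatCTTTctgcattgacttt
RpL27A (chr2L:4458297-4458467, minus strand): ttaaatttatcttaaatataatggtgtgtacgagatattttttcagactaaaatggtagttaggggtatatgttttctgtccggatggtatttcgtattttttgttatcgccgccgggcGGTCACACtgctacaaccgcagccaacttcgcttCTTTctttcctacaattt
RpS6 (chrX:7901311-7901481, minus strand): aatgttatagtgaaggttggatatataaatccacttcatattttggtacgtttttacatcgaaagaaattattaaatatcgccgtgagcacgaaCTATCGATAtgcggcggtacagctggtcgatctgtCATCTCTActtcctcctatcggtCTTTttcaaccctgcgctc

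RpS27 (FBgn0039300), a small-subunit protein, had the strongest peak of the family although its printed promoter holds none of the capitalised elements. In RpL23A, whose protein lines the exit of the nascent peptide tunnel, CAGTGTTG lies 98 to 91 bp upstream of the start site, with its centre 4.5 bp from the summit. RpL14 holds CAACACTA at 74 to 67 bp and again at 42 to 35 bp upstream, and its summit lay 30 bp upstream. In RpS25 the DRE lies 59 to 52 bp upstream, 30.5 bp from the summit. RpL27A has motif 1 at 31 to 24 bp upstream, and its summit was 1 bp upstream of the start site. RpS6, the substrate of S6 kinase, has a DRE at 55 to 48 bp upstream, motif 7 at 21 to 14 bp and a TCT initiator, yet had no reproducible peak.

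Large-subunit genes were bound in 39 of 48 cases (81.3%, 95% Wilson interval 68.1 to 89.8%). The strongest of their regions stood in 33, 37 and 39 of the 48 in replicates 1, 2 and 3, which is 75.7% ± 6.36 (SD, n = 3). RpL7 led the subunit, with its summit 33 bp downstream of the start site, at position 10201037 of chr2L. Its region ranked 75 in the reproducible set, where rank 1 is the strongest signal, and 83, 97 and 66 in replicates 1, 2 and 3. RpL23A ranked 94 in the set and 70, 168 and 89 in the replicates. RpL34b ranked 142, and 134, 179 and 152 in the replicates. No list placed any of these 3 genes past rank 179.

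RpL14 ranked 169 in the reproducible set and 249, 224 and 126 in the 3 replicates. RpL13A, whose mammalian counterpart also acts off the ribosome to silence inflammatory messenger RNAs, ranked 211, with 268, 342 and 159 in the replicates. RpL30 ranked 297, with 398, 483 and 183. For these genes replicate 3 gave the highest place and the other replicates lower ones. RpL32, long used as the reference transcript rp49 in fly expression work, ranked 349 in the set and 204, 684 and 313 in the replicates. RpL41, the shortest ribosomal protein, ranked 376, with 1198, 394 and 186. Of these 5 genes RpL41 varied the most, and its low place was in replicate 1.

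The remaining bound large-subunit genes ran from RpL28 at rank 425 to RpL29 at rank 3543. Among them, RpL11, which joins the ribosome with the 5S RNA particle, ranked 533 in the set and 667, 572 and 483 in the replicates. RpL5, its partner in that particle, was not bound, with ranks of 2320, 5376 and 11624. The partners thus differed in their call, and RpL5 lay among the strongest regions in replicate 1 alone. RpL10, a protein close to the catalytic centre, ranked 2784 in the set and 3751, 1786 and 3105 in the replicates, just past the limit of 3747 in replicate 1.

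The stalk of the large subunit, which recruits translation factors, is built from RpLP0, RpLP1 and RpLP2, and its genes were not bound alike. RpLP0, the base of the stalk, ranked 442 in the reproducible set and 1055, 623 and 192 in the replicates. RpLP1 ranked 1493, with 4283, 1372 and 1046. RpLP2, the partner of RpLP1, had no reproducible summit, and its regions ranked 14759, 5308 and 8177. No replicate placed RpLP2 among its 3747 strongest regions, whereas RpLP0 was there in all 3 and RpLP1 in replicates 2 and 3.

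Small-subunit genes were bound in 24 of 38 cases (63.2%, interval 47.3 to 76.6%). In replicates 1, 2 and 3, 20, 23 and 26 of them lay among the strongest regions, which is 60.5% ± 7.89 (SD, n = 3). The share was below that of the large subunit in each replicate, but the Wilson intervals of the subunits overlap, and the median rank of bound genes was 961.5 in the small subunit and 977 in the large. RpS27 ranked 52 in the reproducible set and 51, 63 and 49 in the replicates, with its summit 18 bp upstream of the start site at position 25247532 of chr3R. RpS20 ranked 239, with 212, 333 and 219 in the replicates. RpS10b ranked 391, with 588, 406 and 331. RpS25 ranked 399, with 480, 427 and 371. No replicate placed any of these 4 genes past rank 588.

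Lower in the small subunit, RpS27A, which is made as a fusion with ubiquitin, ranked 1408 in the set and 2800, 772 and 2019 in the replicates. RpS30, made as a fusion with a ubiquitin-like protein, ranked 2726, with 4885, 1830 and 3446. The gene sta (stubarista) ranked 2938, with 4448, 2420 and 2921. RpS2, formerly sop, ranked 3026 and had no region in replicate 1, with 1528 and 3307 in the other replicates. RpS3A, the sole member on chromosome 4, likewise had none in replicate 1, with 1451 and 1756 in replicates 2 and 3 and 881 in the set. RpS2 and RpS3A were the only bound members without a region in all 3 lists, as 61 of 63 had one.

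**Figure D1:**
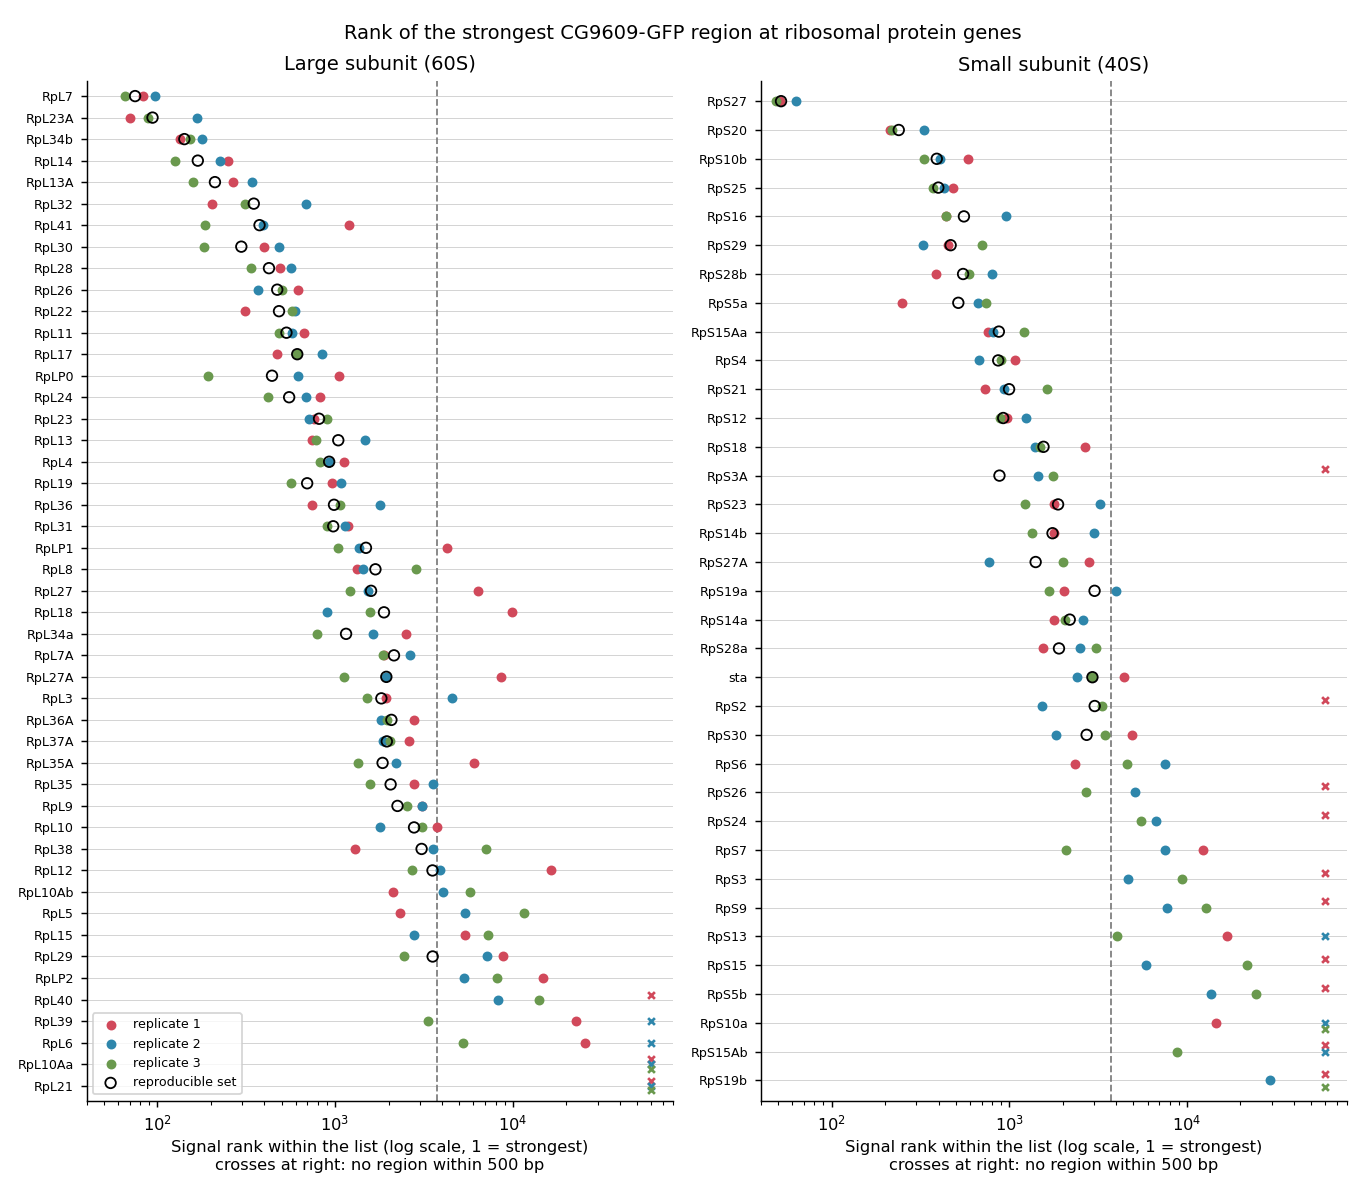
Signal rank (log scale, 1 the strongest) of the strongest region within 500 bp of a TSS of 82 ribosomal protein genes, in the 3 replicate lists (coloured points) and the reproducible set (open circles), by subunit. The dashed line is rank 3747, crosses at the right mark lists with no region, and RpS27 and RpL7 lead the panels at ranks 52 and 75.

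The 23 members without a reproducible summit were 9 large-subunit and 14 small-subunit genes, and most of them still had weaker regions. Of these, 7 had a region in all 3 replicate lists, 11 in 2 lists, 3 in 1 list and 2 in none. The replicate lists also hold background regions, and 6932 of 11322 other unbound genes had a region in at least 1 list. Among the strongest regions, 7 of the 23 members had a place in 1 replicate and 16 in no replicate. Over all protein-coding genes, bound or not, 10626 of 13968 had a place in no replicate, beside 16 of the 86 members. A share for other unbound genes alone is not given. The genes just outside the threshold were RpS6, RpL15 and RpL10Ab, at ranks 3784, 3834 and 3881 of the pooled list, and those just inside were RpL29 and RpL12, at 3543 and 3536. The call thus parted genes of nearby rank in the pooled list. RpS6 ranked 2342, 7516 and 4588 in the replicates. RpL15 ranked 5407, 2796 and 7264. RpL29, which was called, ranked 8867, 7194 and 2453, which is no higher than these on the whole.

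Farther from the threshold, RpS7 ranked 12332, 7531 and 2090 in replicates 1, 2 and 3. RpS26, absent from the list of replicate 1, ranked 5094 and 2715. RpS13 and RpL39 were absent from that of replicate 2: RpS13 ranked 16711 and 4051 in replicates 1 and 3, and RpL39 ranked 22815 and 3345. In each of these 4 genes replicate 3 gave the highest place. RpS3, which sits where the messenger RNA enters the ribosome, ranked 4644 and 9333 in replicates 2 and 3. RpS24 ranked 6661 and 5509, and RpS9 7682 and 12732 in the same replicates. RpL40, the other ubiquitin fusion, ranked 8277 and 14098. None of these 4 genes had a region in replicate 1.

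RpL6 had regions of rank 25405 and 5248 in replicates 1 and 3. RpS15 ranked 5911 and 21717 in replicates 2 and 3. No region lay near RpL21 or RpL10Aa in any of the 3 lists. Also unbound were RpS5b, RpS10a, RpS15Ab and RpS19b, which are copies of bound genes and are described with them. Counting regions of any strength, 72, 79 and 82 of the 86 members had one in replicates 1, 2 and 3, beside 44.5%, 49.6% and 53.7% of all protein-coding genes. Replicate 1 therefore held fewer regions at promoters in general as well as at these genes.

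Ranks of bound members went together between replicates. Spearman's rho was 0.789 between replicates 1 and 2 and 0.805 between replicates 1 and 3 (61 genes each), and 0.840 between replicates 2 and 3 (63 genes). These are descriptions across genes, which share the antibody, the libraries and the processing. Bound members with low places in replicate 1 included RpL35A, RpL27, RpL27A, RpL29, RpL18 and RpL12, at 6018, 6402, 8589, 8867, 9941 and 16396. In replicate 3 all 6 were among the strongest regions, at ranks of 1129 (RpL27A) to 2700 (RpL12).

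Bound members were strong as well as frequent among the peaks. Their strongest regions had a median rank of 977 (middle range 470.5 to 1924.5), while the other bound protein-coding genes, 2560 in number, had a median of 1619.5. Among the 936 strongest regions, the top 25% of the set, stood 31 of the 63 (49.2%), beside 30.5% of the other bound genes. In the replicates, the median rank over the members with a strongest region was 822, 942 and 1046. Most regions of the set, 3074 of 3747, were 390 bp wide. Of the 63 members' regions 35 had that width, the strongest of them at rank 473, and the 28 others were narrower, down to 107 bp.

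The summits lay close to the start sites. The median was 36 bp upstream (middle range 73 to 6.5 bp upstream), 50 of the 63 were upstream, and 42 were within 100 bp upstream of the start site (66.7%). Other bound genes had a median of 108 bp upstream (213 to 46), and 35.5% were within 100 bp upstream. Counted per peak at the nearest start site of any gene, the 1955 other promoter peaks had a median of 78 bp upstream (163 to 26). Of these peaks 42.1% were within 100 bp upstream. Each gene was placed by its start site nearest the summit, and 44 of 86 members had several, against 3655 of 13882 other genes. That part was not separated. The members' medians in replicates 1, 2 and 3 were 49, 44.5 and 32 bp upstream, a mean of 41.8 ± 8.81 bp (SD, n = 3). A single member had its summit more than 200 bp from a start site, and the farthest downstream was RpL26 at 87 bp.

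These distances are shorter than the sonicated fragments, so the position of a summit for a single gene is known less well than its median over genes. For the 61 bound members with a region in all 3 lists, the summits of the replicates spanned a median of 34 bp, and 45 spanned 50 bp or less. The widest span was 292 bp, at RpL18. There the summit of replicate 1, in a region of rank 9941, lay at -401 bp, and those of replicates 2 and 3 at -109 and -114 bp. RpL18 also has a second reproducible summit, and whether it bears on this span was not tested.

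**Figure D2:**
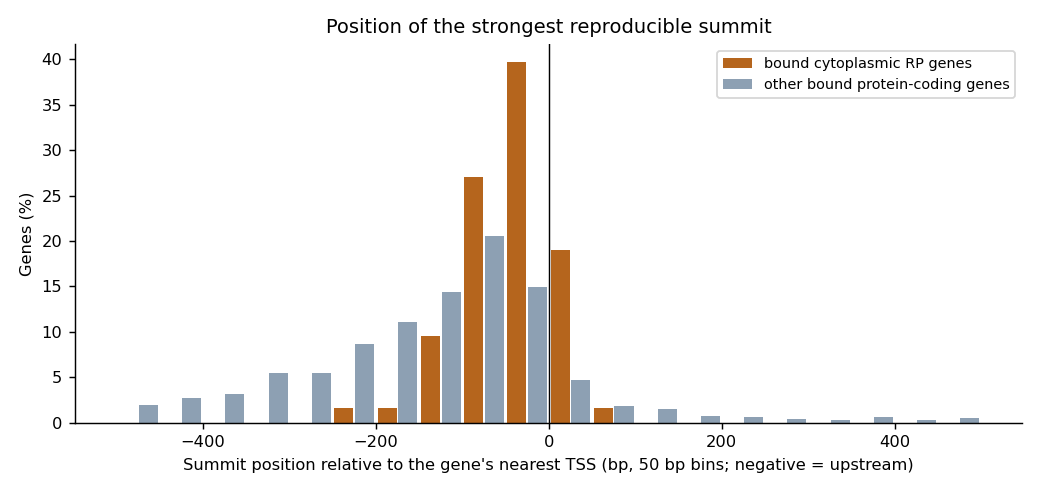
Share of genes (%) by the position of their strongest reproducible summit relative to the nearest TSS, in bins of 50 bp, for the 63 bound ribosomal protein genes and the 2560 other bound protein-coding genes. The bin of 50 bp just upstream of the start site holds 25 of the ribosomal protein genes (39.7%) and 383 of the others.

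Many ribosomal protein genes share their promoter region with a gene on the other strand. Such a neighbour, with a start site within 500 bp, was found for 34 of the 86, and 30 of these were bound (88.2%), against 33 of the 52 without one (63.5%). In the replicates these shares were 73.5%, 79.4% and 88.2% with a neighbour and 53.8%, 63.5% and 67.3% without. Other protein-coding genes differed in the same direction, with 38.2% bound where there was such a neighbour and 10.9% where there was none. The share of bound members without a neighbour was above both of these.

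The bound genes made 31 such pairs, all divergent, since RpL13A has both Dph4 and Spec2 across from it. The median gap between the start sites was 277 bp. The summit lay between the start sites in 23 pairs and nearer to that of the ribosomal protein gene in 26, at a median of 57 bp from it and 204 bp from the neighbour's. Gaps and the count of summits between used the closest pair of start sites, and distances used the start site nearest the summit. These differ at RpLP0 (gap 111 bp, distances 12 and 324 bp) and RpS16 (gap 78 bp, distances 39 and 421 bp), both not counted as between. RpS27 faces Nup37, a nuclear pore gene, over 144 bp, with the summit 18 bp from RpS27 and 126 bp from Nup37. RpL14 faces Nelf-E, for a subunit of the negative elongation factor, over 127 bp, with the summit 30 bp from RpL14 and 97 bp from Nelf-E. RpL28 faces the translation initiation factor gene eIF1 over 381 bp, with the summit 57 bp from RpL28 and 324 bp from eIF1. In these pairs the summit stood on the side of the ribosomal protein gene.

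In 5 pairs the summit was nearer to the neighbour. RpL13 faces Dref, whose protein binds the DRE, and the summit was 21 bp from the start site of Dref and 105 bp from that of RpL13. At RpS20 it was 148 bp from CG17271 and 185 bp from RpS20. At RpL34a it was 89 bp from Trmt61, for a transfer RNA methyltransferase subunit, and 140 bp from RpL34a. At RpL29 the distances, 56 bp from Sgf29, for a SAGA complex subunit, and 66 bp from RpL29, were nearly equal. A shared summit is counted for both genes of a pair, and the lists do not tell to which promoter it belongs. The 58 other bound members had the summit nearest to their own start site, which for RpS27A was at the same distance as that of Ip259, a gene on the same strand.

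Of the members with an opposite-strand neighbour, 4 were not bound, among them RpS13 (CSN8, for a subunit of the COP9 signalosome), RpS15Ab (Lsm10) and RpS19b (CG5854). A second reproducible summit was found at 2 members, both in divergent pairs. At RpL18 the second summit, of rank 3394, lay 313 bp upstream of the start site and 36 bp from that of its neighbour Neos. At RpL34b it ranked 2596, lay 265 bp upstream and was 4 bp from the start site of CG8132. Both second summits were weaker than the first, which ranked 1886 at RpL18 and 142 at RpL34b.

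**Figure D3:**
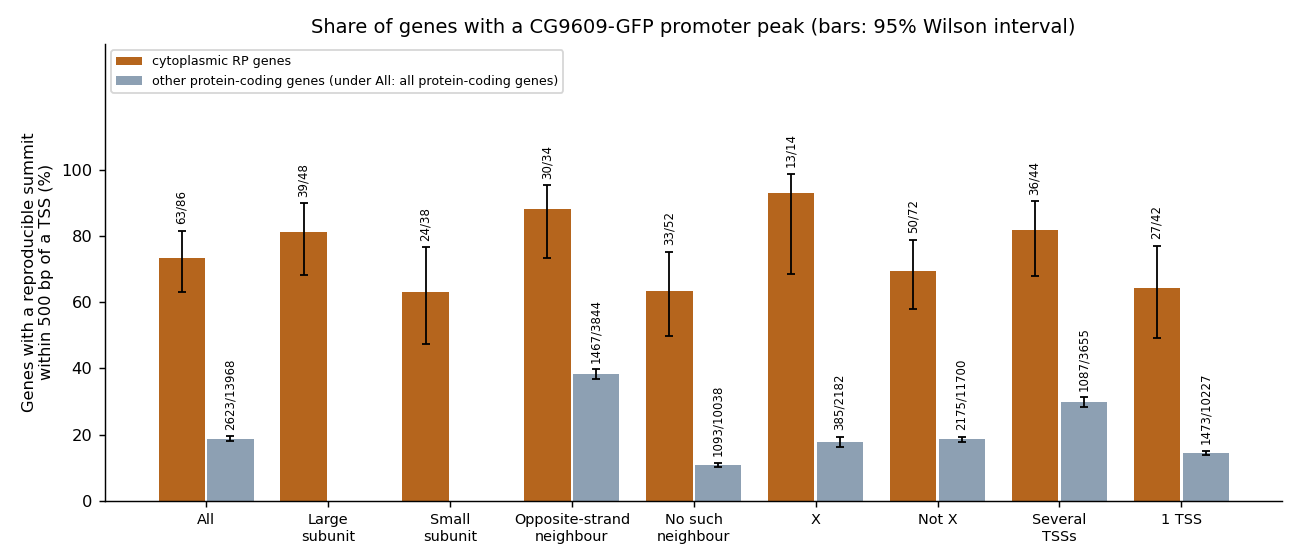
Share of genes (%) with a reproducible summit within 500 bp of a TSS, for ribosomal protein genes (brown) and other protein-coding genes (blue-grey; under All, all protein-coding genes), with 95% Wilson intervals and counts above the bars. The ribosomal protein classes run from 63.2% in the small subunit to 92.9% on the X chromosome, and no bar of the other genes passes 38.2%.

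On the X chromosome 13 of 14 members were bound, with RpS6 the exception, and the ranks of the bound ones ran from 391 (RpS10b) to 3021 (RpS19a). The others in order of rank were RpL22 (484), RpS5a (517), RpS28b (550), RpL17 (613), RpS15Aa (874), RpL36 (987), RpS14b (1752), RpL35 (2055), RpL7A (2147), RpS14a (2190) and sta (2938). In replicates 1, 2 and 3, 13, 12 and 13 of the 14 were among the strongest regions. Elsewhere 50 of 72 members were bound (69.4%). Other genes did not share this difference, with 17.6% bound on X and 18.6% elsewhere. Per autosomal arm, 12 of 17 members on 2L, 12 of 18 on 2R, 11 of 14 on 3L and 14 of 22 on 3R were bound. The Wilson interval for X, 68.5 to 98.7%, overlaps that of the rest, 58.0 to 78.9%.

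Members with several annotated start sites were bound in 36 of 44 cases (81.8%) and those with a single one in 27 of 42 (64.3%). Among other genes the shares were 29.7% and 14.4%. More start sites give more chances to lie within 500 bp of a summit, and that part was not separated. Many ribosomal protein genes carry small nucleolar RNAs (snoRNAs) in their introns. Here 29 of the 86 had a snoRNA annotated on the same strand within the bounds of the gene, and introns were not read separately. Of these hosts 21 were bound (72.4%), beside 42 of 57 that carry none (73.7%), a difference within the counting error. Of the other genes, 24 of 55 hosts were bound (43.6%), beside 18.3% of those that carry none.

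Ribosomal proteins encoded by a pair of gene copies allow a comparison at the same protein. Of 8 pairs whose symbols differ in a final a or b, 3 had both copies bound, 4 had 1 copy bound and RpL10A had none. Of all members 63 of 86 (73.3%) were bound, and whether the pairs depart from that share was not tested. RpL34b ranked 134, 179 and 152 in replicates 1, 2 and 3, and RpL34a 2519, 1642 and 792. RpS28b ranked 388, 803 and 593, and RpS28a 1545, 2513 and 3088. The copies of RpL34 and RpS28 did not overlap in rank. RpS14a, at 1795, 2589 and 2063, and RpS14b, at 1784, 2986 and 1339, did overlap. They lie in tandem on X with start sites 1156 bp apart, and each has its own summit.

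In 4 pairs a single copy was bound, and the other copy had a lower place or no region in every replicate. RpS10b ranked 588, 406 and 331, while RpS10a had a region in replicate 1 alone, at 14551. RpS5a ranked 248, 668 and 744, while RpS5b had 13659 and 24340 in replicates 2 and 3. RpS15Aa ranked 764, 809 and 1210, while RpS15Ab had 8818 in replicate 3. RpS19a ranked 2036, 4013 and 1675, while RpS19b had 29422 in replicate 2. The bound copy of each of these pairs lies on X and the other on an autosome. In the pair with no call, RpL10Ab ranked 2128, 4056 and 5730, and RpL10Aa had no region in any list. Within 250 bp of the start sites the longest run identical between the copies was 9 to 25 bp, the longest of them in RpS15A. Whether reads were placed in the wrong copy was not tested.

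**Figure D4:**
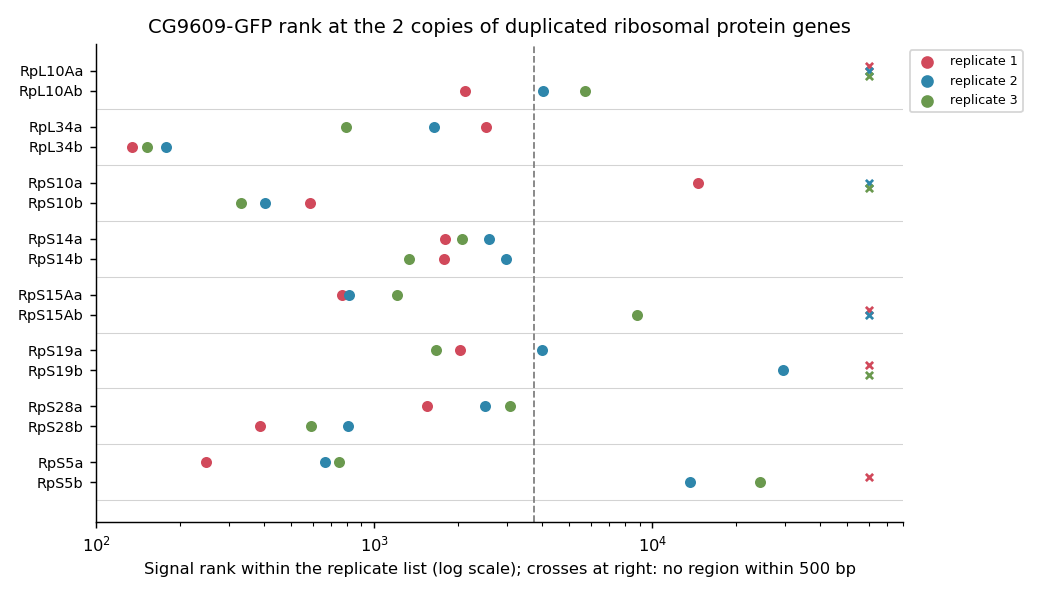
Signal rank (log scale) of the strongest region within 500 bp of a TSS for both copies of 8 duplicated ribosomal protein genes, in the 3 replicate lists. The dashed line is rank 3747 and crosses at the right mark lists with no region, as for RpL10Aa in all 3.

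Sequence elements were counted in windows of 250 bases upstream to 50 bases downstream of the start site, on both strands unless said otherwise, with the start site nearest to the strongest peak or, without a peak, the canonical one. The TCT initiator, CTTT on the gene's strand with its C within 5 bases of the start site, stood in 39 of 86 members (45.3%) and 5.48% of other genes. It was as frequent in bound members (44.4%) as in unbound ones (47.8%). The usual initiator TCAGT within 5 bases was found in 0 of 86 members and 11.3% of other genes. The TATA box TATAAA, at 45 to 15 bases upstream, was in RpL39 alone of the members and in 8.98% of other genes. With any annotated start site of a gene allowed, CTTT was so placed in 56 of 86 members and 1070 of 13882 other genes. The TCT initiator was thus more frequent in members than in other genes, and it did not part bound from unbound members.

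The DRE, TATCGATA, is a palindrome bound by Dref. It was in 24 of the 86 members (27.9%) and 8.90% of other genes. Of bound members 25.4% had it, beside 15.1% of other bound genes. Members with it were bound in 16 of 24 cases (66.7%) and members without it in 47 of 62 (75.8%). Among the other genes 31.2% were bound with a DRE and 17.2% without. The members' difference rests on a few genes. With ATCGATAG, which overlaps the DRE, 15 of 20 members were bound, and without it 48 of 66 (72.7%). Of the 65 peaks at members, 18 had a DRE within 250 bp of the summit, at a median of 31 bp, and 12 of them (18.5% of the 65) had it within 50 bp. Other promoter peaks, 1955 in number, had it at a median of 75 bp, and 5.27% had it within 50 bp. Motif 1, GGTCACAC, the sequence bound by M1BP, was in 16.3% of members and 7.41% of other genes. Bound members had it in 17.5% of cases, beside 11.1% of other bound genes. Members with it were bound in 11 of 14 cases and those without in 52 of 72, and it was within 50 bp of the summit in 12.3% of members' peaks and 2.71% of other promoter peaks.

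Motif 7, CANCNCTA, was in 29.1% of members and 15.4% of other genes. Against other bound genes there was no such excess: 28.6% of them had it, beside 27.0% of bound members and 34.8% of unbound ones. Members with it were bound in 17 of 25 cases and without it in 46 of 61, and of other genes 34.2% were bound with it and 15.6% without. GAGAG, the core of sites of GAGA factor, was in 17.4% of members, less than the 30.4% of other genes. A match to any of these letters describes the sequence and does not show a bound factor.

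Words of 8 bases were drawn from the summits of the 3682 reproducible peaks that are not at ribosomal protein genes, by the difference in share between windows within 50 bp of the summit and 7364 windows centred 300 bp away. The word with the largest difference was CAACACTG, in 2.96% of the peak windows and 0.312% of those away, followed by ATCGATAG, which overlaps the DRE, in 3.04% and 0.407%. The next 3 words were TTTAAAAA, ATTTAAAA and AAAATATT. CAACACTG was in 4 of 63 bound members (6.35%) and 1 of 23 unbound ones, and in 10.2% of promoters of other bound genes. Since the word was drawn from the peaks of other genes, its share among them is set by that choice and is not compared with that of the members. Members were bound in 4 of 5 cases with the word and 59 of 81 (72.8%) without. The core CAACACT, a form chosen after seeing the data, was in 11.1% of bound members and 8.70% of unbound ones.

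ATCGATAG was in 23.8% of bound members and 21.7% of unbound ones. It too was drawn from the peaks of other genes, so its share among them is not compared with that of the members. The E-box CACGTG, the site of Myc with its partner Max, was in 9.30% of members' windows and 4.23% of those of other genes. When the 250 bases downstream of the start site were read instead, a window chosen after seeing the data, the E-box was in 26 of 86 members (30.2%) and 4.08% of other genes. Of the 26 members 23 were bound (88.5%), and of the 60 without it 40 were (66.7%). Of other genes 24.4% were bound with it and 18.2% without. In the 250 bases upstream it was in 3 of the 86 members, so its place in this family was on the transcribed side of the start site, whereas most summits were on the other side.

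**Figure D5:**
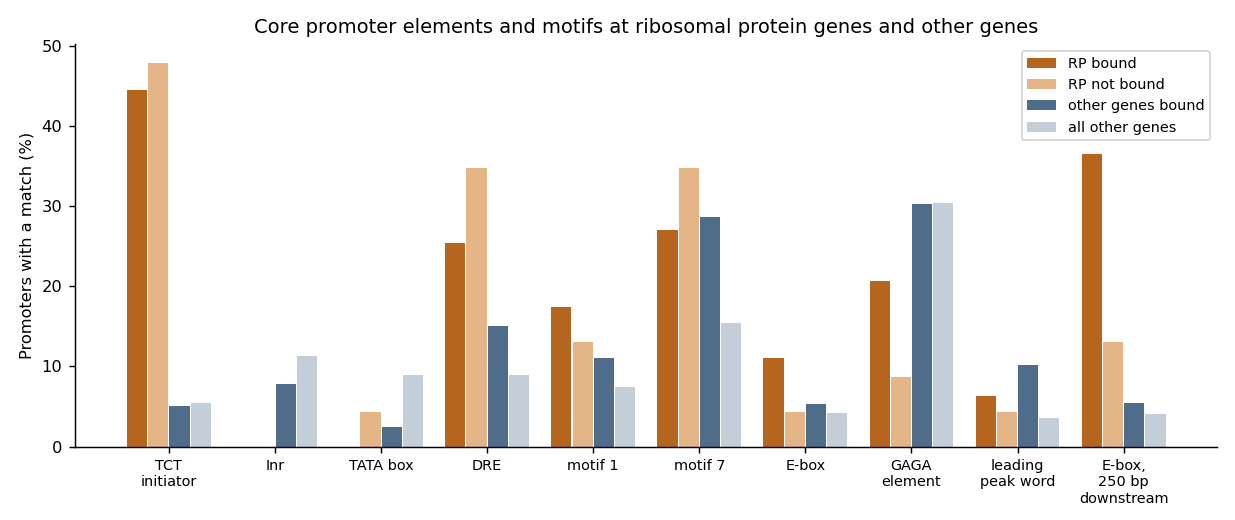
Share of promoters (%) with each sequence element among bound (brown) and unbound (light brown) ribosomal protein genes, other bound genes (dark blue) and all other protein-coding genes (light blue). The TCT initiator (44.4% and 47.8%) sets both classes of ribosomal protein genes apart from the others (5.08% and 5.48%).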

How the data were processed

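ChIP-seq peak lists of 3 replicates of the CG9609-GFP group were used, in build dm6. Per the file headers and labels, the authors deposited for each replicate a list of peaks with background regions (30000, 29898 and 30000 regions), a pooled list (29054) and an IDR-thresholded set (3747, signal 89.99 to 2636). Peak calling software, aligner, thresholds and the scale of the deposited signal were not given in the sources used here, so signal served only as a rank within a list. Read depth is unknown. Summits were the region start plus the deposited summit offset, counted from 1. The 5 deposited dm3 lists were not used.

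Genes and start sites came from Ensembl release 115 (BDGP 6.54) and sequence from RefSeq's Release 6 assembly. No dm6 region ended past its chromosome. Python 3.11.15, numpy 2.4.6, scipy 1.17.1 and matplotlib 3.10.9 were used. Shares carry 95% Wilson intervals, which cover counting error only and treat genes as independent, which they are not. The counting was tested on simulated peak lists. Named with values are the 12 members with the strongest peaks, every unbound member, copies that differ in a final a or b, members on X, the stalk genes, sta, members with more than 1 summit or with the summit nearer to another gene; other members were chosen after their values were seen. A few members are not reported here by name but are counted in every total. The members, gene lists and motifs were chosen with earlier results of these data known.

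Alternatives were windows of 250 and 1000 bp, regions over the TSS, the 1873 strongest peaks, canonical start sites, nearest start site only, a consensus of the replicates (summits within 100 bp) and that consensus without each replicate in turn; for the motifs, a shorter window and canonical start sites. The downstream E-box window and the core CAACACT were added after seeing the data.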

Additional observations from a re-analysis of the deposited data

How the results depend on the processing

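The share of ribosomal protein genes that were bound, 73.26% as reported, was 51.16% with the stronger 1873 peaks and 53.49% with the consensus of the replicate lists (2023 peaks), and 54.65 to 67.44% without each replicate in turn. For the large subunit (81.25%) the values were 58.33%, 58.33% and 60.42 to 72.92%, and 72.92% when a peak counted for the nearest start site only. For the small subunit (63.16%) they were 42.11%, 47.37% and 47.37 to 60.53%. All protein-coding genes (18.78%) gave 10.72% with the stronger peaks, 11.58% with the consensus, 13 to 14.05% without each replicate, 15.31% within 250 bp, 21.56% within 1000 bp, 12.49% for regions over the TSS, 16.66% with canonical start sites and 13.66% with the nearest only. The median position was -45 bp with canonical start sites and -48 to -44.5 bp without each replicate. The median rank was 554 with the stronger peaks and 609 to 925.5 without each replicate. The consensus sets hold fewer peaks by construction (2332 to 2650 without a replicate). The members' share stayed above that of all genes in each of these settings. Among motif shares, the A/T-rich words fell to 2.326 to 4.651% and GAGAG to 10.47% in the shorter window, and the E-box stood at 30.23% downstream. No paired analysis was possible because there is 1 group and no contrast. Without read depth, weak or absent regions cannot be read as absent binding.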

Other observations

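Related gene lists were counted in the same way, beside the 18.8% bound of all protein-coding genes. Summits of these lists were not assigned to the nearest start site of any gene. Mitochondrial ribosomal protein genes were bound in 25 of 73 cases (34.2%). The 3 strongest stood above every cytoplasmic one, with mRpL41 at rank 6, mRpS10 at 12 and mRpS23 at 20, where RpS27 ranked 52. The summits of these 3 lay at -153, -148 and -386 bp from the start site, where negative is upstream. Translation factor genes were bound in 19 of 54 cases (35.2%), led by eIF6 at rank 24, eEF1gamma at 309 and eIF3c at 358. Of 27 ribosome assembly genes 11 were bound, with eIF6 counted here as well, then Ns2 at 156 and Nopp140 at 895. Of 7 genes with ribosomal protein names outside the rule, such as -like copies, RpLP0-like (rank 1027) and RpL37-1 (rank 1061) were bound (28.6%, 95% Wilson interval 8.22 to 64.1%). No test was made of these differences.

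Of 13 growth and ribosomal protein gene regulators, 6 were bound. The gene larp, whose protein family binds messenger RNAs of ribosomal proteins in mammals, ranked 22 in the reproducible set and 18, 25 and 21 in the replicates. Irbp18, a partner of Xrp1 in the response to ribosomal protein gene loss, ranked 240, with 317, 251 and 223. The summits lay at -342 bp from the start site of larp and at -206 bp from that of Irbp18. Dref ranked 1043 with the peak it shares with RpL13, Mnt 1678, M1BP 2294 and Thor, the fly 4E-BP, 2920. Max, Myc, Rheb, S6k, Trf2, Xrp1 and raptor were not bound.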
